A study of Mus musculus with 6 samples.

Results

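The mouse mitochondrial genome carries 37 genes, and all of them are listed among the 55487 genes measured here. They were taken as every gene whose symbol starts with mt-, a rule that uses no measured value. Of these, 13 encode proteins of the respiratory chain, 2 encode ribosomal RNAs and 22 encode transfer RNAs. The cells were CD8+ T cells of the C57BL/6 strain, with 3 control libraries from cells given NaCl and 3 libraries from cells given 5 mM itaconate, both for 48 h. Itaconate is a dicarboxylate made in mitochondria from the citric acid cycle intermediate cis-aconitate, best known from activated macrophages. The labels do not say how the cells were purified or activated, nor whether the 3 libraries of a group came from separate mice or cultures. The p-values therefore reflect only how far these libraries spread, and that spread may be technical.

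Mitochondrial DNA is a small circle whose strands are each transcribed into long precursor RNAs by a dedicated polymerase, POLRMT. Most genes lie on 1 strand, called the plus strand here, where the ribosomal RNAs come before all protein genes and cytochrome b comes after the others. Transfer RNAs stand between many of the other genes, and their excision releases the ribosomal and messenger RNAs, which are then stabilised, polyadenylated or degraded one by one. The proteins are core subunits of complexes I, III, IV and V, on which oxidative phosphorylation in T cells depends.

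Total expected counts per library, in which the authors' program estimates how many reads or fragments each gene has, lay between 20469874 and 31643408 in the control and between 18280217 and 23609543 in the itaconate group. The 7 CD8 T cell markers summed to 1874 to 1937 CPM (the expected count scaled to a common library total) in control and to 2092 to 2111 CPM in itaconate libraries. Markers of other cells were low in both groups: B cell markers summed to 5.09 to 9.20 CPM in control and 2.67 to 10.8 CPM in itaconate, and myeloid markers to 1.71 to 2.23 and 2.52 to 3.75 CPM. The CD8 T cell and myeloid sums did not overlap between the groups, and their part in the values below was not tested. Of the single CD8 T cell markers only Cd8a (477 to 535 CPM in control, 621 to 650 in itaconate) and Lck did not overlap. Of the myeloid markers only Itgam did not, at 0.113 to 0.328 CPM over all libraries. In bulk RNA, fewer cells of a type and less RNA per cell cannot be told apart.

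All 22 transfer RNA genes had a count of 0 in every library. They are 59 to 75 bases long, and the deposited effective length, which is what remains of a gene after allowing for fragment size, was 0 for each. The 6124 genes of the whole table with an effective length of 0 in every library summed to only 21.54 expected counts, so a 0 here says little about the transfer RNAs themselves. The other 15 genes were all counted and all passed the expression filter. mt-Tv, the transfer RNA for valine, is shown because it lies between the 2 ribosomal RNA genes, with no base between them, at M:1025-1093 of GRCm38. mt-Tl1, a transfer RNA for leucine, is shown because it separates the second ribosomal RNA gene, mt-Rnr2, from mt-Nd1 at M:2676-2750. Both are on the plus strand, and these sequences, like those further on, are from the GENCODE M21 transcripts.
mt-Tv: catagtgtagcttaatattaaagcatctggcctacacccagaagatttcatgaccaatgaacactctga
mt-Tl1: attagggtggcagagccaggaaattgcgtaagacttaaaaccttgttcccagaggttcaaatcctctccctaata
The genes on either side of them, mt-Rnr1, mt-Rnr2 and mt-Nd1, differed between the groups in their ratios to each other, as described further on.

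How counts are assigned matters for 7 of the 15 genes. A search of the GENCODE transcripts with each mitochondrial gene found 11 nuclear genes that matched over at least 100 bases at 95% identity or more, and 7 of them had a mean count of at least 10. All 7 are annotated as unprocessed pseudogenes and lie side by side on the minus strand of chromosome 1, between 24611535 and 24616197 in GRCm38. Gm28439 matches the first 876 bases of mt-Nd4, Gm10222 matches 294 bases of mt-Nd4l, Gm28437 matches 783 bases of mt-Co3, Gm10925 matches 678 bases of mt-Atp6 and Gm28661 matches 681 bases of mt-Co2, and none of these 5 has a mismatch. The other two have 1 mismatch each: Gm28438 over 345 bases of mt-Nd3 and Gm29216 over the last 483 bases of mt-Co1. The pairs below show how little sequence there is to place a read by. For mt-Co2 and Gm28661 the first 60 bases are given, at M:7013-7072 on the plus strand and chr1:24615506-24615565 on the minus strand.
mt-Co2: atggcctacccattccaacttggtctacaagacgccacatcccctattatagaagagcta
Gm28661: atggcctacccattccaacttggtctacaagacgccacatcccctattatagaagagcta
For the other pairs the base in capitals is the mismatch. It is T3C in mt-Nd3 (M:9459-9491) against Gm28438 (chr1:24613087-24613119, minus strand), and A1066T in mt-Co1 (M:6390-6423) against Gm29216 (chr1:24616155-24616188, minus strand). Positions are counted from 1 at the 5′ end of the mitochondrial gene, whose base comes first.
mt-Nd3: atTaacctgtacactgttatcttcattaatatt
Gm28438: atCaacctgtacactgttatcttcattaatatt
mt-Co1: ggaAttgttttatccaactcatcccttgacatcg
Gm29216: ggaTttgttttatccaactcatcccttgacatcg
A read that lies inside the shared sequence and spans no mismatch fits both genes equally, and the authors' program divides such reads by estimated abundance.

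The division differed widely between pairs. The mitochondrial gene held 97.0% to 99.2% of the counts of its pair for mt-Nd4 and 92.4% to 95.5% for mt-Co1, both of which are longer than their copies. It held 69.6% to 93.2% for mt-Nd4l and 21.01% to 35.8% for mt-Co3. It held only 9.32% to 15.1% for mt-Atp6, 11.1% to 16.8% for mt-Co2 and 4.46% to 7.63% for mt-Nd3. The same 7 mitochondrial genes were the ones of the 15 with expected counts further than 0.001 from a whole number in any library. Their deposited levels therefore depend on the division, so values with each copy's counts added to its mitochondrial gene, called joined values here, are given beside them. Joined values do not show where the RNA was made.

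**Figure D1:**
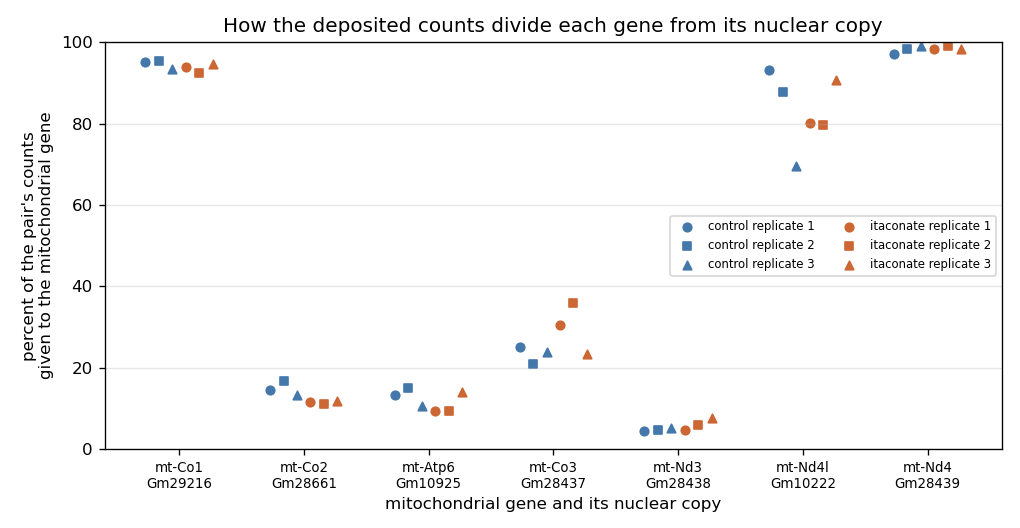
The mitochondrial gene's percent of the summed counts of the gene and its nuclear copy, for the 7 pairs, with 1 point for each of the 3 control and 3 itaconate libraries. mt-Nd4 and mt-Co1 hold at least 92.4% in every library, whereas mt-Atp6, mt-Co2 and mt-Nd3 hold at most 16.8%.

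The mitochondrial genes together took a share of the library that did not differ between the groups beyond the spread of the controls. Their share of all counts was 1.94%, 1.25% and 1.50% in control replicates 1 to 3 and 1.55%, 1.35% and 1.39% in itaconate replicates 1 to 3. The groups overlapped, with control replicate 1 the highest and control replicate 2 the lowest of the 6. The means were 1.56% ± 0.348 in control and 1.43% ± 0.109 in itaconate (SD, n = 3 each; difference of -0.132 percentage points; exact two-sided permutation test, p = 0.7, where the smallest p of 3 against 3 is 0.1). Without control replicate 1 the difference was 0.0561 percentage points, so its sign rests on that library. With the copies joined the shares were 2.09% ± 0.445 and 1.89% ± 0.122 (n = 3 each; exact permutation test, p = 0.6).

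**Figure D2:**
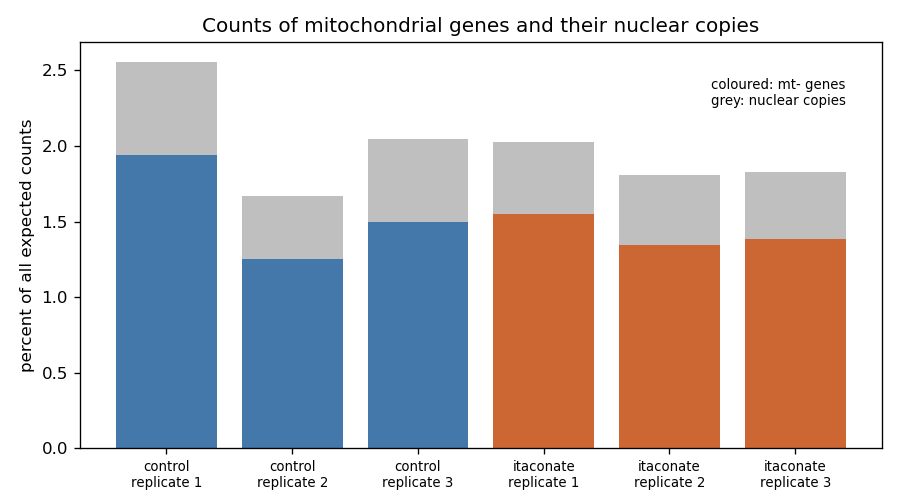
Percent of all expected counts per library, with mitochondrially encoded genes as the coloured part of each bar and their nuclear copies stacked on top in grey. In the coloured part, control replicate 1 stands highest at 1.94% and control replicate 2 lowest at 1.25%, with all itaconate libraries between them.

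The controls differed from each other along the whole genome. Among controls, replicate 1 held the highest CPM in 13 of the 15 genes and replicate 2 the lowest in 12. The median coefficient of variation over the 15 genes was 23.5% in control and 9.29% in itaconate. Expressed as shares of the mitochondrial total it was 6.38% and 4.73%. Ratios between mitochondrial genes were thus much steadier across libraries than their levels, and both are given below.

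Of the 15 genes, edgeR's quasi-likelihood test called 1 lower and 0 higher in itaconate at the adjusted p (Benjamini-Hochberg) threshold of 0.05. Over the whole table it called 1487 of 12350 genes (12.0%), with 825 higher (6.68%) and 662 lower (5.36%). At an unadjusted p under 0.05 the count was 5 of 15, beside 26.5% of all genes: mt-Rnr1 and mt-Nd3 with positive and mt-Co2, mt-Nd4l and mt-Cytb with negative log2 fold changes. DESeq2 called those same 5 genes, beside 11.5% of all genes. The median log2 fold change of the 15 was -0.17, beside 0.0059 over all genes tested. In CPM, mt-Rnr1 and mt-Nd3 lay above every control library in all itaconate libraries (2 of 15, beside 14.2% of all genes), and mt-Co2, mt-Nd4l and mt-Cytb lay below (3 of 15, beside 16.9%). Of all genes, 31.1% did not overlap in either direction. These counts of non-overlapping levels were close to those of the whole table.

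**Figure D3:**
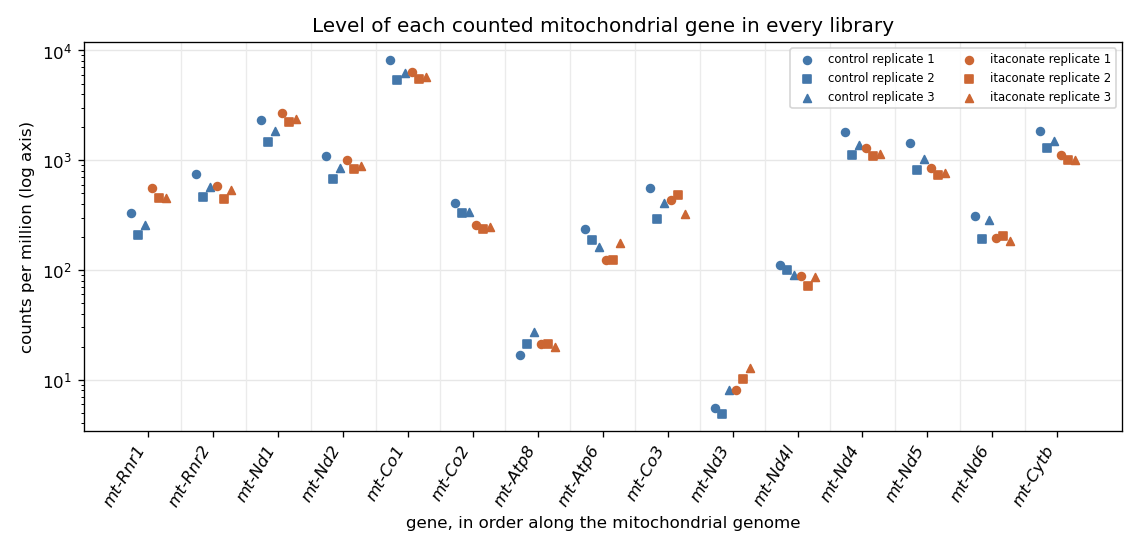
CPM of each of the 15 counted mitochondrial genes, with 1 point per library and a log axis, in the order of the genes on the genome. Itaconate libraries lie above all controls for mt-Rnr1 and mt-Nd3 and below all controls for mt-Co2, mt-Nd4l and mt-Cytb, and the groups overlap for the other 10 genes.

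The shares of the mitochondrial total separated the groups more often. In all 3 itaconate libraries mt-Rnr1, mt-Nd1 and mt-Nd2 took a larger share than in any control (3 of 15), and mt-Co1, mt-Co2, mt-Nd4, mt-Nd5, mt-Nd6 and mt-Cytb a smaller one (6 of 15). Over all genes tested, the ratio to the mitochondrial total lay above the controls in 5.77% and below in 2.25% (8.02% in all). With the copies joined, 4 of 15 lay above (mt-Rnr1, mt-Nd1, mt-Nd2 and mt-Nd3; 6.64% of all genes) and 5 below (mt-Co3, mt-Nd4, mt-Nd5, mt-Nd6 and mt-Cytb; 2.16%), beside 8.79% of all genes in either direction. The shares sum to 100%, so a larger share of 1 gene lowers the others, and mitochondrial genes are part of the total they are divided by, which other genes are not. With the mitochondrial total as the library size, edgeR called 1 member higher, mt-Rnr1 (log2 fold change 1.01 ± 0.22 SE, adjusted p = 0.00125), and 0 lower, beside 0.632% and 0.300% of all genes (0.931% in either direction). Without control replicate 3 mt-Rnr1 was no longer called on that scale (1.03, adjusted p = 0.12), nor without itaconate replicate 1 (0.98, 0.0723), 2 (1.02, 0.0561) or 3 (1.04, 0.0642), although the fold change stayed as large. With copies joined on that scale the call on mt-Rnr1 was made too (1.03 ± 0.21 SE, adjusted p = 0.000417), beside 1.13% of all genes. As deposited, the SE on that scale was much alike for all 15 members, from 0.21 for mt-Nd6 to 0.26 for mt-Nd3. edgeR sets it partly from the spread of all genes tested. Calls made or lost on that scale therefore do not rest on the members' own spread alone.

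The ribosomal RNAs differed from each other. mt-Rnr1 (ENSMUSG00000064337, M:70-1024) is the 12S RNA of the small subunit of the mitochondrial ribosome and the first counted gene of the plus strand. Its level was 329, 206 and 257 CPM in the controls and 556, 456 and 453 CPM in the itaconate libraries. Every itaconate library stood above every control. The means were 264 ± 62.0 and 488 ± 58.9 CPM (n = 3 each), a log2 fold change of 0.91 ± 0.20 SE that missed the threshold in edgeR (adjusted p = 0.0617). The call was made without control replicate 1 (1.09, adjusted p = 0.0222), without control replicate 2 (0.75, 0.0321) and in DESeq2 (0.000804). With the deposited effective lengths as an offset it was made too (edgeR adjusted p = 0.0457). It was not made without control replicate 3 or any 1 itaconate library (edgeR adjusted p = 0.143 to 0.171), nor with no expression filter (0.11).

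mt-Rnr2 (ENSMUSG00000064339, M:1094-2675) is the 16S RNA of the large subunit and lies directly after mt-Rnr1 and mt-Tv. Its level was 742, 463 and 573 CPM in the controls and 580, 444 and 530 CPM in itaconate, with the groups overlapping (log2 fold change -0.17 ± 0.21 SE, edgeR adjusted p = 0.688). As shares of the mitochondrial total, mt-Rnr1 held 1.70%, 1.65% and 1.72% in control and 3.58%, 3.38% and 3.26% in itaconate. mt-Rnr2 held 3.83%, 3.70% and 3.83% in control and 3.73%, 3.29% and 3.82% in itaconate, again overlapping. The ratio of mt-Rnr1 to mt-Rnr2 counts was 0.444, 0.445 and 0.448 in the controls and 0.959, 1.03 and 0.855 in the itaconate libraries, with no overlap and little spread among controls. Neither gene has a counted nuclear copy. Together the ribosomal RNAs held 5.47% ± 0.113 of mitochondrial counts in control and 7.02% ± 0.325 in itaconate (n = 3 each; difference of 1.55 percentage points; exact permutation test, p = 0.1, the smallest the design allows). The labels name total RNA, and whether the libraries were selected for polyadenylated RNA or depleted of ribosomal RNA is not given in the sources used here.

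Complex I, the NADH dehydrogenase that feeds electrons into the respiratory chain, takes 7 of its subunits from the mitochondrial genome, and their fold changes differed in sign. mt-Nd1 (ENSMUSG00000064341, M:2751-3707) follows mt-Rnr2 and mt-Tl1. Its level was 2306, 1479 and 1854 CPM in control and 2681, 2234 and 2393 CPM in itaconate. Control replicate 1 alone overlapped the itaconate range (log2 fold change 0.40 ± 0.18 SE, edgeR adjusted p = 0.268). Its share of mitochondrial counts was 11.9%, 11.8% and 12.4% in control and 17.3%, 16.6% and 17.2% in itaconate, 1.41 times as large. Per mt-Rnr2 count there were 3.11, 3.19 and 3.23 counts of mt-Nd1 in control and 4.62, 5.03 and 4.52 in itaconate.

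mt-Nd2 (ENSMUSG00000064345, M:3914-4951) is the next protein gene. It had 1095, 675 and 852 CPM in control and 1006, 832 and 887 CPM in itaconate, fully overlapping (log2 fold change 0.08 ± 0.20 SE, edgeR adjusted p = 0.854). Its share was 5.65%, 5.39% and 5.69% in control and 6.48%, 6.17% and 6.39% in itaconate, without overlap. The 4 genes at the start of the plus strand thus differed among themselves: the ratio of itaconate to control shares was 2.02 for mt-Rnr1, 0.954 for mt-Rnr2, 1.41 for mt-Nd1 and 1.14 for mt-Nd2.

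mt-Nd3 (ENSMUSG00000064360, M:9459-9806) had the lowest counts of the 15. It had 5.50, 4.91 and 8.06 CPM in control and 8.11, 10.2 and 12.8 CPM in itaconate, where the highest control and the lowest itaconate library nearly met (log2 fold change 0.76 ± 0.22 SE, edgeR adjusted p = 0.0537). The call was made in DESeq2 (0.00493), with no expression filter, and without control replicate 3 or itaconate replicate 1. With no expression filter the SE was 0.14 on the same counts, since more genes entered the fit. Joined with Gm28438, which held most of the pair, the level was 123, 106 and 160 CPM in control and 176, 172 and 168 CPM in itaconate. The joined groups also did not overlap, and the test still did not call the gene (log2 fold change 0.43 ± 0.17 SE, edgeR adjusted p = 0.198). The 2 genes on either side of it, mt-Co3 and mt-Nd4l, did not share this direction in their joined values.

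mt-Nd4l and mt-Nd4 are neighbours that are read from 1 shared messenger RNA in overlapping frames. They overlap by 7 bases, M:10167-10173, shown in capitals at the end of mt-Nd4l (M:10152-10173) and the start of mt-Nd4 (M:10167-10188).
mt-Nd4l: tctcaacctactacaATGCTAA
mt-Nd4: ATGCTAAaaattattcttccct
mt-Nd4l (ENSMUSG00000065947, M:9877-10173) had 111, 101 and 90.8 CPM in control and 88.5, 71.0 and 86.8 CPM in itaconate, with all itaconate libraries below the controls (log2 fold change -0.27 ± 0.089 SE, edgeR adjusted p = 0.0771). DESeq2 called it (0.0197), as did edgeR with no expression filter or without control replicate 3. With no expression filter the SE of mt-Nd4l was 0.060 on the same counts. Joined with Gm10222 it had 120, 115 and 130 CPM in control and 110, 89.0 and 95.6 CPM in itaconate, and this was the 1 joined gene that edgeR called (log2 fold change -0.29 ± 0.075 SE, adjusted p = 0.0284, beside 5.38% of all genes called lower and 6.72% called higher in that fit). The call was lost in 4 of the 6 fits that left out 1 library. mt-Nd4 (ENSMUSG00000064363, M:10167-11544) had 1791, 1118 and 1365 CPM in control and 1283, 1103 and 1129 CPM in itaconate, overlapping (log2 fold change -0.26 ± 0.19 SE, edgeR adjusted p = 0.488). Its share was 9.23%, 8.93% and 9.12% in control and 8.26%, 8.18% and 8.13% in itaconate, without overlap.

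mt-Nd5 and mt-Nd6 lie on opposite strands and overlap by 14 bases at M:13552-13565. mt-Nd5 (ENSMUSG00000064367, M:11742-13565) had 1442, 821 and 1030 CPM in control and 845, 735 and 760 CPM in itaconate, overlapping only through control replicate 2 (log2 fold change -0.47 ± 0.23 SE, edgeR adjusted p = 0.301). Its share was 7.44%, 6.56% and 6.89% in control and 5.44%, 5.45% and 5.47% in itaconate, so the itaconate libraries were almost the same and all lower. mt-Nd6 (ENSMUSG00000064368, M:13552-14070) is the 1 protein gene on the minus strand, and since no transfer RNA was counted it is also the only counted gene of that strand. It had 311, 193 and 283 CPM in control and 196, 204 and 183 CPM in itaconate, overlapping through control replicate 2 (log2 fold change -0.41 ± 0.20 SE, edgeR adjusted p = 0.294), and it was called lower only without control replicate 2. Its share of mitochondrial counts was 1.61%, 1.54% and 1.89% in control and 1.26%, 1.51% and 1.32% in itaconate, with a narrow gap between the groups. The means were 1.68% ± 0.186 and 1.36% ± 0.129 (n = 3 each; difference of -0.316 percentage points; exact permutation test, p = 0.1, the smallest possible). The strand setting of the authors' counting is not given in the sources used here, so plus-strand RNA that runs through this gene may be among its counts.

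Complex III, which passes electrons from ubiquinol to cytochrome c, has 1 mitochondrially encoded subunit, cytochrome b. Its gene mt-Cytb (ENSMUSG00000064370, M:14145-15288) is the last protein gene of the plus strand. It had 1862, 1288 and 1496 CPM in control and 1116, 1002 and 994 CPM in itaconate, and every itaconate library stood below every control. The means were 1549 ± 291 and 1038 ± 68.2 CPM (n = 3 each; log2 fold change -0.55 ± 0.14 SE, edgeR adjusted p = 0.0695). The test called it lower without control replicate 1 (-0.41, adjusted p = 0.00337) and without control replicate 2 (-0.68, adjusted p = 0.00294), and so did DESeq2 (0.00838). Without control replicate 3 or any 1 itaconate library it was not called (edgeR adjusted p = 0.138 to 0.225). Its share was 9.60%, 10.3% and 9.9997% in control and 7.18%, 7.43% and 7.16% in itaconate, 0.729 times as large. It has no counted nuclear copy. The ratio of mt-Nd1 to mt-Cytb counts was 1.24, 1.15 and 1.24 in control and 2.40, 2.23 and 2.41 in itaconate. By contrast the ratio of mt-Nd5 to mt-Cytb overlapped, at 0.774, 0.637 and 0.689 in control and 0.757, 0.733 and 0.764 in itaconate.

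Complex IV, cytochrome c oxidase, takes its 3 core subunits from the mitochondrial genome. mt-Co1 (ENSMUSG00000064351, M:5328-6872) encodes the catalytic subunit and held the most counts of all 15 genes. It had 8174, 5340 and 6212 CPM in control and 6343, 5535 and 5691 CPM in itaconate, overlapping (log2 fold change -0.14 ± 0.17 SE, edgeR adjusted p = 0.683). Its joined share was 33.6%, 33.5% and 32.5% in control and 33.3%, 33.1% and 32.8% in itaconate, 0.997 times as large and overlapping. The deposited share, 42.2%, 42.6% and 41.5% against 40.8%, 41.0% and 41.0%, did not overlap.

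mt-Co2 (ENSMUSG00000064354, M:7013-7696) encodes the subunit that takes electrons from cytochrome c, and it was the 1 member that edgeR called lower. It had 404, 331 and 336 CPM in control and 255, 235 and 244 CPM in itaconate, with a wide gap between the groups. The log2 fold change was -0.52 ± 0.067 SE (edgeR adjusted p = 0.000554), and the call was kept in each of the 6 fits that left out 1 library. With the mitochondrial total as the library size the call was lost while the fold change stayed close (-0.44 ± 0.22 SE, adjusted p = 0.831), and without control replicate 1 it was made on that scale too (-0.51, adjusted p = 0.0402). That larger SE was much like those of the other members on that scale. The deposited share was 2.08%, 2.64% and 2.24% in control and 1.64%, 1.74% and 1.76% in itaconate, without overlap. On the usual scale the call was not kept when the counts of the identical nuclear copy Gm28661 were added. The joined level was 2765, 1970 and 2522 CPM in control and 2200, 2123 and 2052 CPM in itaconate, which overlap (log2 fold change -0.16 ± 0.12 SE, adjusted p = 0.482), and of the 6 joined fits that left out 1 library only that without control replicate 2 called it. The mitochondrial gene's percent of the pair was 14.6%, 16.8% and 13.3% in control and 11.6%, 11.1% and 11.9% in itaconate, without overlap, and Gm28661 itself was not called (log2 fold change -0.11 ± 0.14 SE, adjusted p = 0.702). The call on mt-Co2 therefore holds for the deposited division of reads, and with all libraries not for the sum of both genes.

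mt-Co3 (ENSMUSG00000064358, M:8607-9390) encodes the remaining core subunit. As deposited it had 562, 293 and 410 CPM in control and 433, 479 and 322 CPM in itaconate, overlapping (log2 fold change -0.01 ± 0.31 SE, edgeR adjusted p = 0.989). Joined with Gm28437 it had 2245, 1394 and 1716 CPM in control and 1425, 1338 and 1371 CPM in itaconate (log2 fold change -0.35 ± 0.19 SE, adjusted p = 0.33). The joined share was 8.78%, 8.34% and 8.39% in control and 7.02%, 7.41% and 7.49% in itaconate and did not overlap, although the deposited share did.

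Complex V, the ATP synthase, takes 2 membrane subunits from the mitochondrial genome, again encoded in overlapping frames. mt-Atp8 and mt-Atp6 overlap by 43 bases, M:7927-7969, in capitals at the end of mt-Atp8 (M:7912-7969) and the start of mt-Atp6 (M:7927-7984).
mt-Atp8: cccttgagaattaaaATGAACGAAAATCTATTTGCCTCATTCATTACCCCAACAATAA
mt-Atp6: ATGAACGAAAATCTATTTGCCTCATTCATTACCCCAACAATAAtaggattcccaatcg
mt-Atp8 (ENSMUSG00000064356, M:7766-7969) had 16.9, 21.1 and 27.3 CPM in control and 21.3, 20.95 and 19.7 CPM in itaconate, with the itaconate libraries inside the control range (log2 fold change -0.06 ± 0.16 SE, edgeR adjusted p = 0.857). Its effective length was only 4.55 to 8.96 of 204 bases, so its deposited TPM, which divides by that length, put it at rank 2 among the 15 in control (3922 ± 869 TPM) from 449, 431 and 865 counts. mt-Atp6 (ENSMUSG00000064357, M:7927-8607) had 238, 188 and 163 CPM in control and 123, 123 and 176 CPM in itaconate, overlapping through itaconate replicate 3 (log2 fold change -0.45 ± 0.22 SE, edgeR adjusted p = 0.297). Joined with Gm10925 it had 1786, 1249 and 1532 CPM in control and 1313, 1318 and 1257 CPM in itaconate (log2 fold change -0.21 ± 0.13 SE, adjusted p = 0.375).

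**Figure D4:**
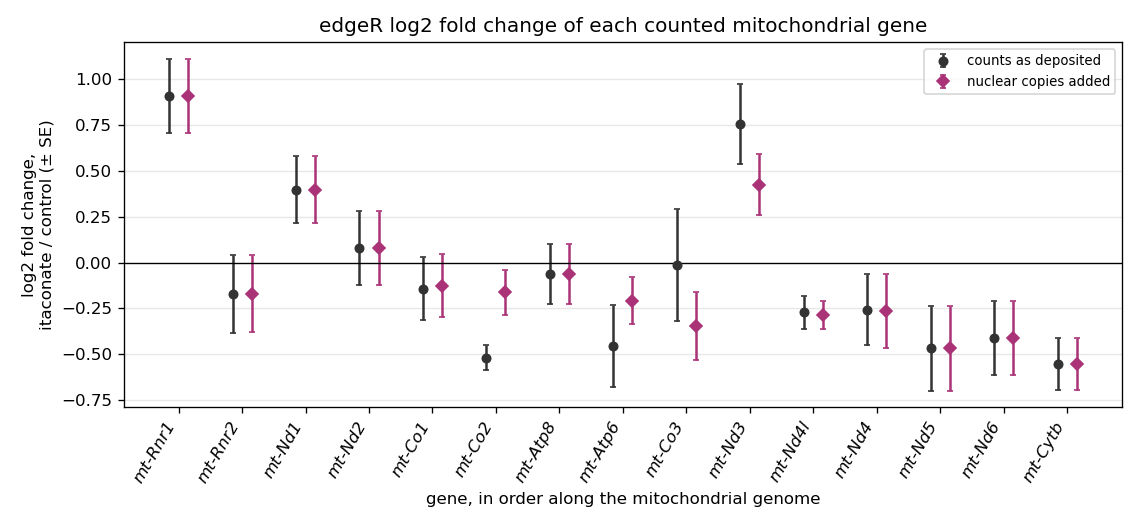
Log2 fold change of itaconate against control with its SE for the 15 genes in edgeR's fit, as deposited and with nuclear copies joined. mt-Co2 moves from -0.52 as deposited to -0.16 joined, while mt-Rnr1, mt-Nd1 and mt-Cytb, which have no counted copy, stay in place.

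Read along the plus strand, the share ratios were lower with distance from the start, though not evenly. Over the 14 counted plus-strand genes, the start position and the log2 ratio of shares had a Spearman's rho of -0.56 (Pearson's r = -0.55) as deposited, and of -0.754 (r = -0.701) with copies joined. Over the 7 of them without a counted copy rho was -0.786 (r = -0.809). These are descriptions across genes of the same 6 libraries, whose shares sum to a fixed total, and the genes are not independent. For comparison, rho was -0.244 with gene length and -0.503 with GC content over the 14 joined values. As deposited it was -0.156 with gene length and -0.402 with GC content. The exceptions were mt-Rnr2, near the start with a joined ratio of 0.968, and mt-Nd3, in the middle with 1.44. At the far end mt-Nd5 had a joined ratio of 0.794 and mt-Cytb 0.739.

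**Figure D5:**
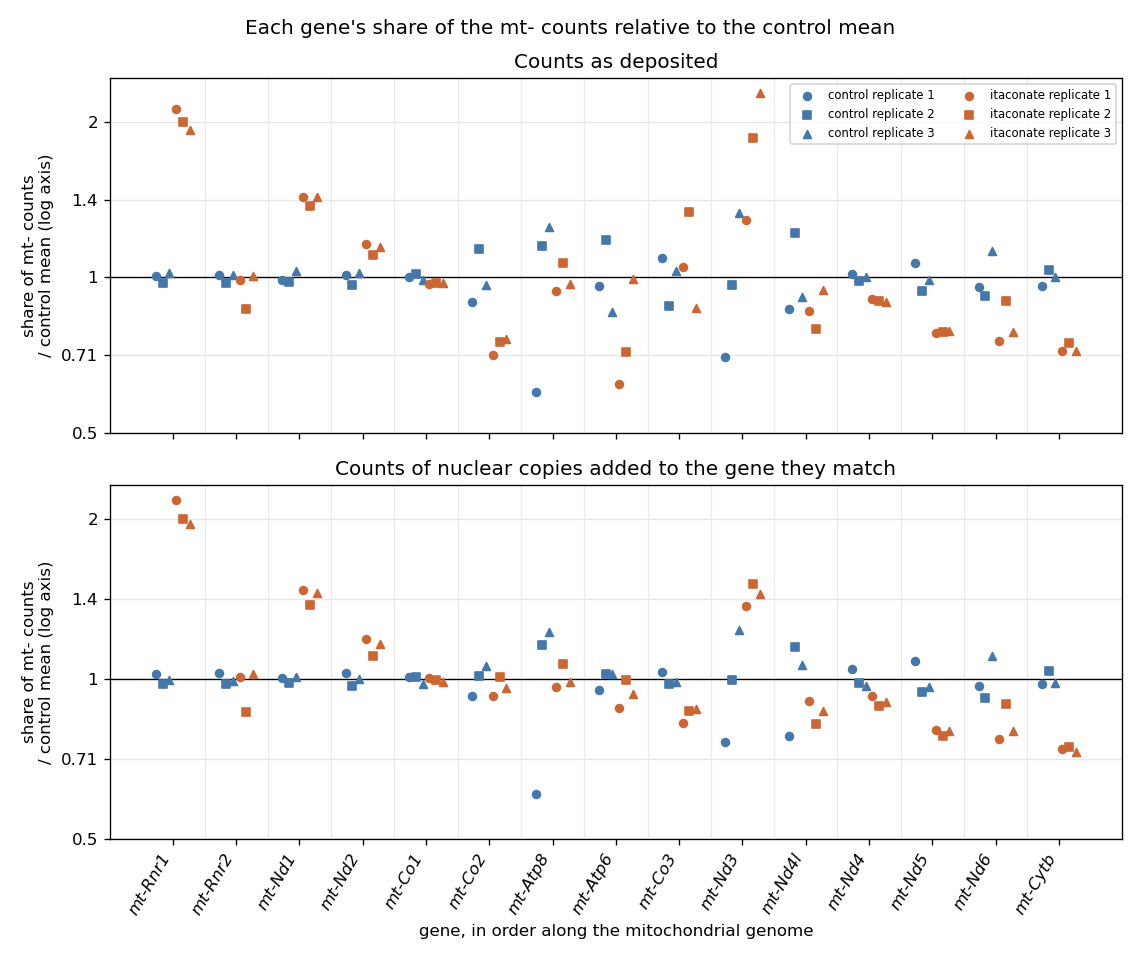
Each gene's share of mitochondrial counts relative to its control mean, by library, with genes in genome order, as deposited and with copies joined. mt-Rnr1, mt-Nd1 and mt-Nd2 at the start lie above the controls in all 3 itaconate libraries, mt-Rnr2 overlaps them, and mt-Nd4, mt-Nd5, mt-Nd6 and mt-Cytb towards the end lie below.

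Levels between genes were compared per kilobase of annotated length. With copies joined, mt-Co1 was the highest in control at 4494 ± 983 CPM per kilobase, followed by mt-Co2 at 3536 ± 596, mt-Co3 at 2277 ± 548, mt-Atp6 at 2235 ± 394 and mt-Nd1 at 1964 ± 433 (SD, n = 3). The ranges of mt-Co2 and mt-Co1 overlapped over the controls, as did those of mt-Co3, mt-Atp6 and mt-Nd1. Within every control library, however, mt-Co1 stood above mt-Co2, and mt-Nd1 stood below both mt-Co3 and mt-Atp6. The order of mt-Co3 and mt-Atp6 differed between control libraries. In itaconate mt-Nd1 stood at rank 3 with 2545 ± 236, and mt-Rnr1 moved from rank 14 (277 ± 64.9) to rank 9 (511 ± 61.7). mt-Atp8 was lowest in both groups on this scale, at 107 ± 25.7 and 101 ± 4.17 CPM per kilobase. Annotated length makes no allowance for fragment size, and the effective length of mt-Atp8 was only 4.55 to 8.96 of 204 bases. By deposited TPM it ranked 2 in control and 3 in itaconate, and mt-Nd4l ranked 5 in control against 11 here. The places of such short genes are therefore not settled by either scale. As deposited, mt-Co1 (4256 ± 939) was followed by mt-Nd1 and by mt-Cytb (1354 ± 254), and mt-Nd3 was lowest at 17.7 ± 4.81.

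Grouped by complex, the share of mitochondrial counts in the 7 complex I genes was 36.1% ± 0.855 in control and 39.0% ± 0.469 in itaconate (n = 3 each). Complex III held 9.96% ± 0.344 and 7.26% ± 0.151, and complex IV held 47.1% ± 0.555 and 45.6% ± 0.686. Complex V held 1.42% ± 0.217 and 1.13% ± 0.246, and its groups overlapped (exact permutation test, n = 3 each, p = 0.3). For complexes I, III and IV the groups did not overlap (exact permutation test, p = 0.1 for each, the smallest the design allows). With copies joined the complex I share was 27.7% in control and 30.6% in itaconate, the complex III share 7.43% and 5.49%, the complex IV share 53.3% and 51.7%, and the complex V share 7.42% and 6.99%. Within complex I mt-Nd1 (mean deposited share 12.0% in control and 17.0% in itaconate) and mt-Nd2 (5.58% and 6.35%) had larger shares in itaconate. The shares of mt-Nd4, mt-Nd5 and mt-Nd6 were smaller.

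Nuclear genes on a fixed list for copying, transcribing, processing and translating the mitochondrial genome were seldom called. The list also holds regulators such as Esrra and carriers such as Slc25a36. Of 75 listed genes 73 were tested. Of these, 1 was called higher (1.37%, beside 6.68% of all genes), 3 were called lower (4.11%, beside 5.36%) and 69 were not called. Their median log2 fold change was -0.0007. Esrra, a nuclear receptor that drives genes of oxidative metabolism, rose from 36.6 ± 3.9 to 45.9 ± 1.5 CPM (log2 fold change 0.35 ± 0.081 SE, edgeR adjusted p = 0.0118). Pnpt1, a mitochondrial RNA exonuclease, fell from 84.6 ± 5.1 to 69.1 ± 3.9 CPM (-0.27 ± 0.060, 0.0101). Polg, the catalytic subunit of the mitochondrial DNA polymerase, fell from 79.4 ± 2.8 to 68.5 ± 4.4 CPM (-0.19 ± 0.058, 0.047), and Slc25a36, a mitochondrial pyrimidine nucleotide carrier, from 36.4 ± 0.81 to 30.8 ± 1.2 CPM (-0.22 ± 0.066, 0.0479). The call on Slc25a36 was lost in each of the 6 fits that left out 1 library (adjusted p = 0.0617 to 0.167), with log2 fold changes of -0.24 to -0.19. That on Polg was lost in all of them except the fit without itaconate replicate 1 (adjusted p = 0.0594 to 0.175), with log2 fold changes of -0.21 to -0.16. Those on Esrra and Pnpt1 were lost without itaconate replicate 2 (adjusted p = 0.0579) and itaconate replicate 3 (0.0561), respectively. Limma on log2(TPM + 1) called none of these genes. With the deposited effective lengths as an offset the call on Pnpt1 was kept, and those on Esrra, Polg and Slc25a36 were lost.

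The 7 genes followed by name were not called in the fit to all libraries. The polymerase Polrmt had 46.5 ± 2.3 CPM in control and 46.8 ± 2.3 in itaconate (log2 fold change 0.03 ± 0.063 SE, edgeR adjusted p = 0.785). With the deposited effective lengths as an offset it was called higher (0.36, adjusted p = 0.0334), and limma on log2(TPM + 1) gave 0.29 (0.101). Tfam, which packages the DNA and activates its promoters, had 78.8 ± 0.95 and 76.3 ± 2.0 CPM (-0.02 ± 0.053, 0.819). The initiation factor Tfb2m had 35.2 and 33.2 CPM (-0.06 ± 0.071, 0.647) and the elongation factor Tefm 10.7 and 11.2 CPM (0.09 ± 0.12, 0.704). Lrpprc and Slirp, which together stabilise mitochondrial messenger RNAs, had 186 and 193 CPM (0.08 ± 0.046, 0.299) and 28.2 and 26.7 CPM (-0.05 ± 0.12, 0.83). The coactivator Ppargc1b had 9.73 and 10.6 CPM (0.16 ± 0.11, 0.408).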

How the data were processed

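RNA-seq was read from 6 gene-level tables with RSEM's column names. The expected count of a gene, per the file headers, is RSEM's unscaled estimate of its reads, as deposited by the authors. TPM and FPKM values, per the file headers, were scaled by the authors to effective length and library, and FPKM was not used here. Bowtie 0.12.2, mm8 and mm10 are listed in the submitters' processing notes with no role. The strand setting is not given in the sources used here. GENCODE M21 (GRCm38) gave positions and sequences by Ensembl identifier, and 99.83% of identifiers matched. CPM is the expected count scaled to the library's total.

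Rounded expected counts of all 6 libraries were tested with edgeR 4.0.16 in R 4.3.3 (quasi-likelihood, robust, TMM, minimum count 10, minimum total 15, no covariate). Calls were made at 0.05 after Benjamini-Hochberg adjustment over 12350 genes. SE is the log2 fold change divided by the square root of F. edgeR estimates the spread of each gene partly from that of all genes tested. The fit was tested on simulated data. Single values per library were compared by exact two-sided permutation. Nuclear copies were found with BLAST 2.17.0. Alternatives used DESeq2 1.42.0, limma 3.58.1, other scalings and joined copies. The mitochondrial scaling with joined copies, and leaving libraries out on either, were added after seeing the data.

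All 15 counted members were named. From the nuclear list, up to 4 called genes in each direction were named, with 7 by name. Members and lists were chosen with earlier results of these data known. Prorp was not analysed here under that symbol, and Ppargc1a did not pass the filter. No pair of libraries within a group agreed within sampling noise (chi-square per gene of 4.94 to 16.5).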

Additional observations from a re-analysis of the deposited data

How the results depend on the processing

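The number of mitochondrial genes called, 1 as reported, was 3 with no expression filter, beside 1993 of all 21978 genes tested. It was 5 in DESeq2 (beside 1420 of 12348) and 2 with an effective length offset (567 of 12350). When 1 library was left out it was 1 to 4, and the 4 came without control replicate 2 (726 of 12745). On the scale of the mitochondrial total it was 0 to 2 when 1 library was left out. The 2 came without control replicate 1 (224 of 12350 genes) or control replicate 2 (436 of 12350). The fits with 0 called 39 to 59 of 12350 genes. With copies joined it was 0 to 7 when 1 library was left out. The 7 came without control replicate 2 (731 of 12738 genes) and the 0 without itaconate replicate 2 (906 of 12765) or 3 (837 of 12532). Over all genes, the 1487 calls became 340 in limma on log2(TPM + 1), 567 with the effective length offset and 726 to 1400 without 1 library. Of the calls 55.5% were higher, against 39.1% in limma, 67.8% on the mitochondrial scale and 70.5% on that scale with copies joined. On the mitochondrial scale, leaving out 1 library moved the 67.8% to between 39.3% (without control replicate 1) and 90.4% (without control replicate 2), and the 115 calls to between 39 (without itaconate replicate 3) and 436 (without control replicate 2). The number of calls among nuclear genes, 4 as reported, was 0 in limma, 2 with the offset and 1 to 6 without 1 library. The 2 with the offset included Polrmt, which was not among the 4. The difference in the mitochondrial share lay between -0.2874 and 0.0561 percentage points without 1 library, that in the ribosomal RNA share between 1.40 and 1.72, and that in the minus-strand share between -0.3885 and -0.2098. The median log2 fold change of the members lay between -0.33 and -0.04 over all alternatives. Scaling by the mitochondrial total moved the median of all genes to 0.0718, and to -0.0781 without control replicate 1 and 0.2334 without control replicate 2. The causes of these changes were not tested.

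Log2 fold changes that took the other sign were at most 0.2540 in size, for mt-Co3 on the mitochondrial scale without itaconate replicate 3. Tfam was at 0.0251 in limma and 0.0870 with the offset, and mt-Rnr2, mt-Co1 and Tefm at 0.0118, 0.0345 (joined 0.0449) and -0.0201 without control replicate 1. mt-Nd2 was at -0.0866 without control replicate 2 (joined -0.0867). Slirp was at 0.0057, 0.0176 and 0.0210 without control replicate 2, control replicate 3 and itaconate replicate 1. Without 1 library the values ran from -0.3320 to 0.0118 for mt-Rnr2, -0.2834 to 0.0345 for mt-Co1, -0.0866 to 0.2641 for mt-Nd2, -0.2259 to 0.2382 for mt-Co3, -0.2262 to 0.1492 for mt-Atp8, -0.1905 to 0.0210 for Slirp and -0.0201 to 0.1810 for Tefm. mt-Co3 was at 0.1186 on the mitochondrial scale, at 0.2382 and 0.1358 without control replicate 1 and itaconate replicate 3, and at 0.1842, 0.0345, 0.1409, 0.1435 and 0.2540 on the mitochondrial scale in 5 of the 6 fits without 1 library. mt-Atp8 was at 0.1492 without control replicate 3 (joined 0.1493), at 0.0147 on the mitochondrial scale with copies joined, and at 0.1012, 0.1885, 0.0271 and 0.0040 on the mitochondrial scale without 1 library.

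Replicate numbers in the labels were tried as a pairing. Deviations of same-numbered libraries correlated at 0.216, 0.106 and 0.069. Other pairs of a control and an itaconate library lay at -0.237, 0.0354, 0.0039, -0.115, -0.245 and 0.164. The highest of these, control replicate 3 with itaconate replicate 2, lay within the range of the same-numbered pairs, which were all positive. Whether the numbers pair libraries was therefore not settled, and the main fit took no pairing. With the replicate block edgeR called 2419 of 12350 genes, 7 of the nuclear list and 7 members. The members were mt-Rnr1, mt-Nd1 and mt-Nd3 higher and mt-Rnr2, mt-Co2, mt-Nd4l and mt-Cytb lower, and mt-Co3 was at 0.0114. mt-Nd3 had the lowest counts, 100.59 to 301.98 per library, and transfer RNAs had none.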
